A study of Mus musculus with 8 samples.

Results

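The loci of 7 genes of hepatic glucose production and the fasting response were examined for sites bound by Foxa2 and Hdac3 in young and old mouse liver. Each locus was a fixed window of the mm9 genome build, and every listed site that overlapped a window by at least 1 bp was a member. The windows lay on chromosome 19 from 4.46 to 4.67 Mb (Pcx), chromosome 2 from 172.93 to 173.04 Mb (Pck1), chromosome 13 from 62.91 to 63.05 Mb (Fbp1) and chromosome 11 from 101.18 to 101.30 Mb (G6pc). The others lay on chromosome 8 from 112.46 to 112.58 Mb (Tat), chromosome 11 from 7.05 to 7.16 Mb (Igfbp1) and chromosome 5 from 51.80 to 52.00 Mb (Ppargc1a). Together they spanned 1.01 Mb and held 45 of the 28196 sites of the 4 lists: 9 of 6604 for young Foxa2, 27 of 12834 for old Foxa2, 6 of 5828 for young Hdac3 and 3 of 2930 for old Hdac3. No mm9 annotation was used here, so the position of each gene inside its window was not checked, and no site was assigned to a promoter, exon or intron.

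The study used chromatin immunoprecipitation with sequencing (ChIP-seq) on snap-frozen liver tissue, with all its cell types together, of wild-type C57BL/6 mice, an inbred laboratory strain, aged 3 months (young) or 21 months (old). The chromatin was pulled down with an antiserum to Foxa2 or an antibody to Hdac3, both raised in rabbit. The 8 libraries came as 2 for each combination of protein and age, and 1 list of sites stood for both libraries of a group. Values therefore have no replicate error, and no difference between ages was tested. Read depth was unknown, and neither the fed state of the mice nor whether the libraries of a group came from separate animals is given in the sources used here.

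In fasting, the liver makes glucose from lactate, amino acids and glycerol. Glucagon and glucocorticoids switch on the genes of this pathway, and insulin switches them off, in large part by keeping the forkhead factor Foxo1 out of the nucleus. Foxa2 is a forkhead factor that opens chromatin at liver enhancers, where the glucocorticoid receptor and other hormone-driven factors can then bind. Hdac3 is a histone deacetylase of the corepressor complexes that nuclear receptors such as Rev-erb recruit, and its loss in liver is known to change lipid and glucose metabolism. Pcx, Pck1, Fbp1 and G6pc encode the enzymes of the steps that are specific to glucose synthesis, Tat feeds it from tyrosine, Igfbp1 is a secreted fasting signal, and Ppargc1a is a coactivator that is induced in fasting.

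Promoter sequences of the 7 genes were taken from RefSeq (build GRCm38.p6), which gave 8 promoters, 2 of them for Pcx. Each ran from 250 bases before to 50 bases after the start. They were searched on both strands for a forkhead core, which was the word TGTTTAC or its variant TATTTAC, as well as TGTTTGC with its variant TATTTGC. The core of insulin response elements, which forkhead factors of the Foxo type are known to recognise, was TGTTTTG or its variant TATTTTG. The 2 sets have no word in common but matches could overlap in part. The 3 promoters that held a match are shown with the matched bases in capitals, because they are the forkhead-type sequences of this gene group. Their GRCm38.p6 positions are in another build than the sites and cannot be set beside them.
G6pc, chr11:101367466-101367765, + strand: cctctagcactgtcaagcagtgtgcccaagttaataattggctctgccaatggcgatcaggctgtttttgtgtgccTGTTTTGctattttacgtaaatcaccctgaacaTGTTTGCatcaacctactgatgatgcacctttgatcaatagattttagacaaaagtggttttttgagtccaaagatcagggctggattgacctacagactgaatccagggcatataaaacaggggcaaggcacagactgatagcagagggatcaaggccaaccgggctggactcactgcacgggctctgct
Igfbp1, chr11:7197537-7197836, + strand: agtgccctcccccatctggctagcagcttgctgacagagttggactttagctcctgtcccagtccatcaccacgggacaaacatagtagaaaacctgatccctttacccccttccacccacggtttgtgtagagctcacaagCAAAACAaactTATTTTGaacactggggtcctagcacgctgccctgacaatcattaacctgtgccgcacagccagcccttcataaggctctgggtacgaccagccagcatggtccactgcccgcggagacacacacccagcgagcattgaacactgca
Ppargc1a, chr5:51567676-51567975, - strand: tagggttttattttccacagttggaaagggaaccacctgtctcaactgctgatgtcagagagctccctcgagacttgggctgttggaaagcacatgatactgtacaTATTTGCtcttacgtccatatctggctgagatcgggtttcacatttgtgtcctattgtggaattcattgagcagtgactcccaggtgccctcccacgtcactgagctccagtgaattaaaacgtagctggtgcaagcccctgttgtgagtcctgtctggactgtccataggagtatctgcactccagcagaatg

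The G6pc promoter held both cores. Its insulin response core began 174 bases and its forkhead core 141 bases before the start. In the Igfbp1 promoter 2 insulin response cores lay 4 bases apart on opposite strands, beginning 108 and 97 bases before the start, and no forkhead core was found. The Ppargc1a promoter held 1 forkhead core, 144 bases before the start. A forkhead core was thus in 2 of the 8 promoters and an insulin response core in 2, against 13.5% and 10.2% of the 32851 RefSeq promoters of the same length. Of 23 genes of glucose synthesis, amino acid use and fasting, the 7 included, 20 had promoters in the table. Over their 26 promoters, a forkhead core was in 4 (Fbp2, G6pc, Ppargc1a and Tdo2) and an insulin response core in 4 (Fbp2, G6pc, Igfbp1 and Pck2). Among 13 regulators of fasting 10 were matched, and 2 of their 14 promoters held a forkhead core (Foxa1 and Ncor1) and 0 an insulin response core. Over the 26 promoters both shares were 15.4%, close to those of all promoters, while the counts over 8 promoters are too few to place. A match is a run of letters, not a bound site.

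Foxa2 was listed at 6 of the 7 loci in old liver and at 5 in young liver. The windows held 27 old and 9 young Foxa2 sites, 3.00 times as many at 21 as at 3 months, where the whole lists stood at 1.94. No window held more young than old Foxa2 sites. The Pcx window had 7 old and 3 young sites, the Pck1 window 5 and 1, the Fbp1 window 4 and 3, the G6pc window 4 and 0, the Tat window 4 and 1, the Igfbp1 window 3 and 1, and the Ppargc1a window none at either age. The bar plot of sites per window shows that the 2 loci without a young Foxa2 site, G6pc and Ppargc1a, differed in the old list. As shares of their lists, 0.210% of old sites (exact 95% interval 0.139 to 0.306) and 0.136% of young sites (0.0623 to 0.259) lay in the windows. These intervals overlap and cover counting error only.

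**Figure D1:**
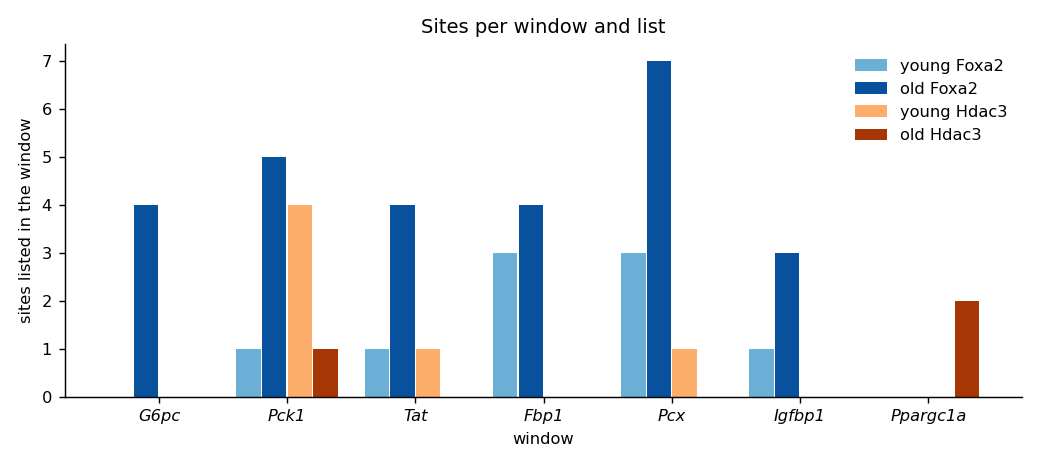
Bars give the number of sites listed in each of the 7 windows (horizontal axis) in each of the 4 lists (colours), with 1 list per protein and age and therefore no error bars. The old Foxa2 bar is the tallest in 6 windows, from 3 sites at Igfbp1 to 7 at Pcx, and the Ppargc1a window has old Hdac3 sites only.

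The excess of old Foxa2 sites was present at each q limit tried, but its size varied. The q-value is the authors' adjusted probability for a site, and its highest value was 0.12 for Foxa2 and 0.2 for Hdac3, whichever the age. At a q of at most 0.1 the windows held 20 old and 9 young sites (ratio 2.22, whole lists 1.49), at 0.05 they held 14 and 8 (1.75, whole lists 1.24), and at 0.01 they held 6 and 1 (6.00, whole lists 2.84). With the old list shortened to the 6604 sites of the young list by q, 13 old and 9 young sites remained in the windows, a ratio of 1.44. In that comparison 4 windows had more old than young sites, 1 had more young than old sites and 2 had equal numbers. At q limits of 0.05 and 0.1 the shares of members were near those of their lists. At 0.01 they were lower, but these shares rest on 6 old sites and 1 young site. Of the old members 51.9% had a q of at most 0.05, against 55.0% of the old list, and of the young members 88.9% did, against 86.1% of the young list. At 0.1 these shares were 74.1% and 75.8% for the old list and 100% and 98.7% for the young list. At 0.01 the shares were 22.2% against 30.8% for the old list and 11.1% against 21.1% for the young list.

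**Figure D2:**
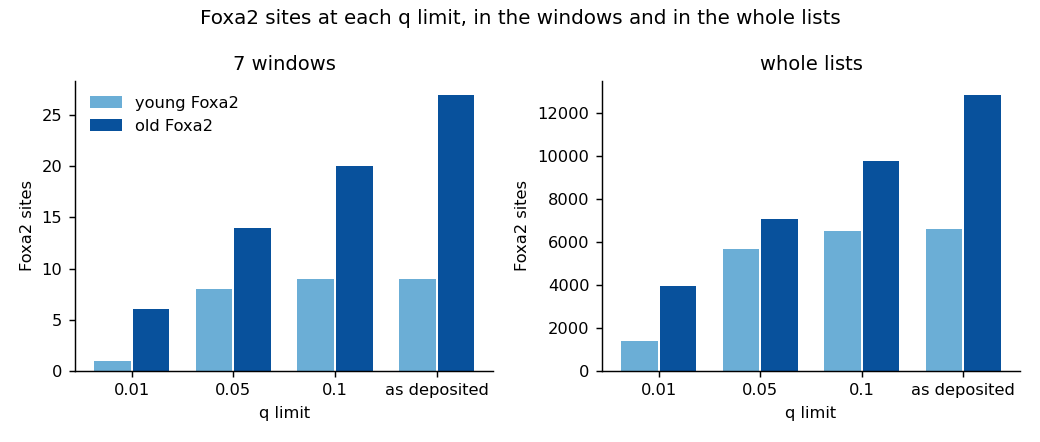
Bars count young and old Foxa2 sites in the 7 windows (left) and in the whole lists (right) at q limits of 0.01, 0.05 and 0.1 and as deposited. In both panels the old bar exceeds the young one at each limit, and the windows go from 6 old and 1 young site at 0.01 to 27 and 9 as deposited.

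The loci were dense in Foxa2 sites compared with the autosomes as a whole. Old Foxa2 sites numbered 26.7 per Mb in the windows and 5.28 per Mb over the autosomes, and young ones 8.9 and 2.64 per Mb. Hdac3 sites numbered 5.9 per Mb in the windows and 2.29 over the autosomes at 3 months, and 3.0 and 1.14 at 21 months. The autosomes include long stretches without genes, whereas the windows were drawn around liver genes, so the densities are not those of comparable loci. None of the 45 sites lay in any of the 103 merged regions that all 4 lists held. The share of all 28196 listed sites that lay in such regions was not computed, so the 0 count cannot be placed. The map of sites by locus shows where in each window the sites fell.

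**Figure D3:**
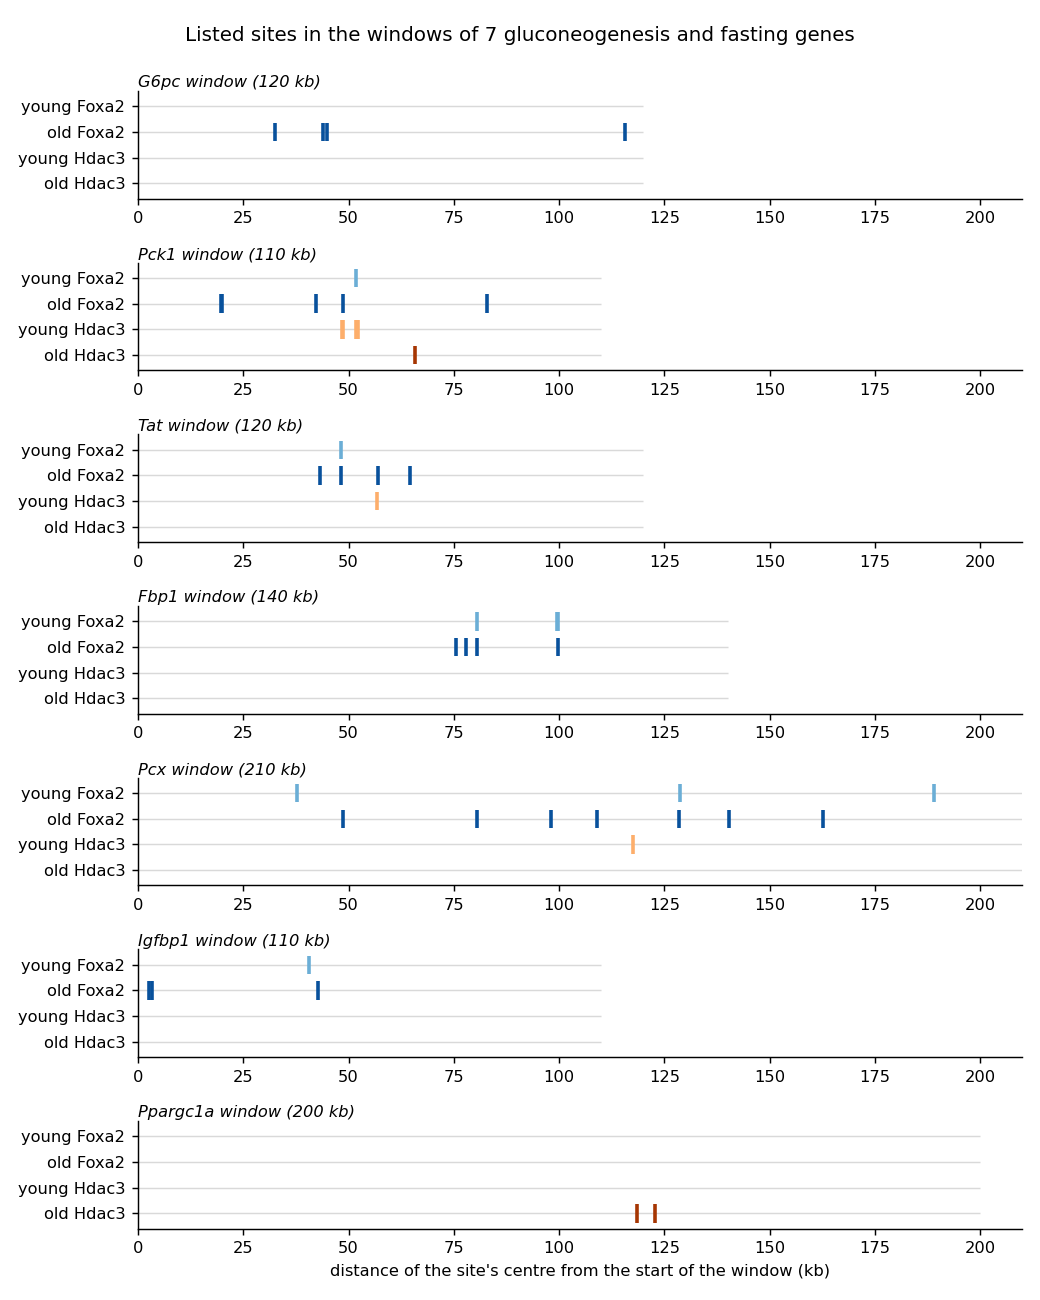
Each panel is 1 window, with the distance of a site's centre from the start of the window in kb on the horizontal axis and 1 row per list. Vertical marks are single sites, not drawn to width. Young and old Foxa2 marks coincide at 1 place in the Tat and Pcx panels and at 2 places in the Fbp1 panel, and 4 young Hdac3 marks crowd together in the Pck1 panel.

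Pcx encodes pyruvate carboxylase, the mitochondrial enzyme that turns pyruvate into oxaloacetate at the entry of the pathway. Its window was the widest at 210 kb and held the most Foxa2 sites. Of autosomal tiles of that length, 2.27% held at least 7 old Foxa2 sites and 5.28% at least 3 young ones. The old sites were 19 to 212 bp wide, with enrichments, the authors' ratio per site, from 8.15 to 62.0. The old site with the lowest q lay from 4557878 to 4558089 (enrichment 13.8, q 0.00204) at rank 2747 of 12834, within the top 21.4% of its list. No young site overlapped it.

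One place in the Pcx window was listed at both ages. There the old site ran from 4588519 to 4588612 (enrichment 13.8, q 0.0424) and the young one, the best-ranked of the window, from 4588591 to 4588648 (enrichment 13.3, q 0.0225, rank 2277 of 6604). They had 22 bp in common, 23.4% of the old and 37.9% of the young site. The other young sites stood apart, 10908 and 26140 bp from the nearest old one. The single Hdac3 site of the locus came from the young list, from 4577519 to 4577545, with an enrichment of 231 but a q of 0.185, near the end of its list at rank 5308 of 5828. At least 1 young Hdac3 site was in 30.6% of tiles of that length. It lay 8575 bp from the nearest old and 11045 bp from the nearest young Foxa2 site.

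Pck1 encodes cytosolic phosphoenolpyruvate carboxykinase, which carries oxaloacetate on towards glucose. Its window was the only one of the 7 with sites in all 4 lists. Of autosomal tiles of 110 kb, 1.80% held at least 5 old Foxa2 sites and 20.4% at least 1 young one. The old Foxa2 site of Pck1 with the lowest q lay from 172972319 to 172972464 (enrichment 38.1, q 0.00692, rank 3741). Another pair of old sites, at 172949670 and 172950017, were only 256 bp apart. The young Foxa2 site, 19 bp wide from 172981750 to 172981768 (enrichment 47.5, q 0.0268, rank 2881), overlapped no old site and lay 3074 bp from the nearest one.

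Young Hdac3 sites crowded at the Pck1 locus. All 4 fell in a stretch of 3.89 kb, from 172978356 to 172982246, which also held the young Foxa2 site and 1 old Foxa2 site. Of autosomal 110 kb tiles, 0.347% held at least 4 young Hdac3 sites. The first 2 were 1 and 2 bp wide, at 172978356 and from 172978611 to 172978612, each with an enrichment of 5.40 and a q of 0.158. The second of these lay inside the old Foxa2 site from 172978536 to 172978675 (enrichment 6.37, q 0.0480), and the first 179 bp outside it. The other pair was wider and flanked the young Foxa2 site. One ran from 172981646 to 172981707 (62 bp, enrichment 18.8, q 0.142) and ended 42 bp before it, and the other ran from 172982163 to 172982246 (84 bp, enrichment 12.6, q 0.141) and began 394 bp after it. The 4 ranked from 3701 to 4593 among 5828 young Hdac3 sites, so none was left at a q of at most 0.1. The old Hdac3 site of the window lay elsewhere, from 172995778 to 172995786 (9 bp, enrichment 185, q 0.0711, rank 1076 of 2930), 13531 bp from the nearest young Hdac3 site. At least 1 old Hdac3 site was in 10.1% of such tiles.

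Fbp1 encodes fructose-1,6-bisphosphatase, a regulated enzyme late in the pathway. Its window had the best-ranked Foxa2 site of the 7 loci and the largest number of places listed at both ages. The old site ran from 63009488 to 63009773 (286 bp, enrichment 29.1, q 3.77e-06) at rank 767, in the top 5.98% of the old list. A young site of 39 bp lay wholly inside it, from 63009564 to 63009602 (enrichment 43.1, q 0.0141, rank 1586), and another of 3 bp lay 30 bp beyond its end, from 63009804 to 63009806 (enrichment 11.2, q 0.0237). Thus 2 young sites stood at 1 old site. At the other shared place the old site ran from 62990386 to 62990440 (enrichment 42.1, q 0.0428, rank 6099). The young site there ran from 62990385 to 62990461 (enrichment 17.7, q 0.0141, rank 1591). The old site lay inside the young one and covered 71.4% of it. The remaining old sites began at 62985494 and 62987873 with q of 0.109 and 0.0682. At least 4 old Foxa2 sites were in 5.03% and at least 3 young ones in 2.68% of autosomal tiles of 140 kb. No Hdac3 site was listed in the window, and the nearest, an old one, lay 225011 bp from a member. Of such tiles, 77.3% held no young and 87.5% no old Hdac3 site.

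G6pc encodes the catalytic subunit of glucose-6-phosphatase, which releases free glucose. All 4 sites of its window were old Foxa2 sites, and 4.0% of autosomal tiles of 120 kb held as many. The best-ranked ran from 101223736 to 101223917 (182 bp, enrichment 6.61, q 0.0199, rank 5142), and the next site, of 58 bp, lay 991 bp further on (enrichment 14.1, q 0.0637). The others began at 101212485 (q 0.0727) and 101295533 (q 0.0913), the last in the outer part of the window. The nearest young Foxa2 site of any of the 4 was 266269 bp away, and the nearest Hdac3 site, an old one, 36184 bp away. The locus was thus listed in old liver alone, and over all autosomal tiles each such absence was common. Of autosomal 120 kb tiles, 78.2% held no young Foxa2 site, 79.9% no young Hdac3 site and 89.0% no old Hdac3 site. Old Foxa2 sites were absent from 67.7% of these tiles too. The share without a young Foxa2 site among tiles with as many old ones was not computed, so the absence at G6pc cannot be placed. Of the 4 old Foxa2 sites, 3 had a q above 0.05, and 1 was left with lists of equal length.

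Tat encodes tyrosine aminotransferase, a classic glucocorticoid target in liver that breaks down tyrosine to fuel the cycle and glucose synthesis. Its window held 4 old Foxa2 sites, 1 young Foxa2 site and 1 young Hdac3 site, against 4.0%, 21.8% and 20.1% of 120 kb tiles with at least as many. The 2 best-ranked old sites were in the top 27.8% of their list. The better one ran from 112508109 to 112508268 (160 bp, enrichment 26.04, q 0.00237, rank 2768), and the young Foxa2 site of 10 bp lay inside it, from 112508197 to 112508206 (enrichment 159, q 0.0298, rank 3708). The other ran from 112516992 to 112517161 (170 bp, enrichment 15.0, q 0.00660, rank 3570). The young Hdac3 site lay 263 bp before that one, from 112516717 to 112516728 (12 bp, enrichment 193, q 0.0837). At rank 367 of 5828, the top 6.30% of its list, it was the best-placed Hdac3 site of the 7 loci. The last old site began at 112524684 and was near the end of the list (q 0.119, rank 12339).

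Igfbp1 encodes a liver-secreted binding protein of insulin-like growth factors that insulin represses, and its promoter is the one printed above with paired insulin response cores. The window held 3 old Foxa2 sites, where 6.80% of 110 kb tiles had at least 3, and 1 young one, where 20.4% had at least 1. The old sites were wide, from 124 to 260 bp, with low enrichments from 4.94 to 11.8. The best-ranked ran from 7053150 to 7053409 (q 7.66e-04, rank 2093), near the start of the window, with another 347 bp before it. The last one ran from 7092731 to 7092973 (enrichment 4.94, q 0.0294). The young site, from 7090540 to 7090597 (enrichment 23.8, q 0.00933), had the lowest q of the 9 young Foxa2 members at rank 1330 and lay 2133 bp from that last site without touching it. Both ages were therefore listed close by at this locus, but at no common base. The nearest Hdac3 site, a young one, lay 871738 bp from a member. Of 110 kb tiles, 81.1% held no young and 89.9% no old Hdac3 site.

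Ppargc1a encodes a transcriptional coactivator that raises the expression of Pck1 and G6pc in fasting. No Foxa2 site was listed in its 200 kb window at either age, and 31.6% of autosomal tiles of that length held at least 1 young and 43.8% at least 1 old one. Its RefSeq gene model spans 661 kb in GRCm38.p6, so the window can hold only part of it. The window held 2 old Hdac3 sites, and 3.42% of tiles held as many. One ran from 51918467 to 51918475 (9 bp, enrichment 3.83, q 0.0993, rank 2158 of 2930). The other was 3 bp wide, from 51922834 to 51922836, with an enrichment of 640 and a q of 0.0595 (rank 580). The nearest Foxa2 site, an old one, lay 135758 bp from the first of them.

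Over the 7 loci, 4 of 9 young Foxa2 sites overlapped an old one, 44.4% (exact 95% interval 13.7 to 78.8), against 40.7% of the young list. Of the 27 old sites 4 overlapped a young one, 14.8% (4.19 to 33.7), against 21.0% of the old list. These shares were near those of the whole lists. At Tat and at 1 Fbp1 place the young site lay wholly inside a much wider old one and covered 6.25% and 13.6% of it, whereas at the other Fbp1 place the old site of 55 bp lay inside the young site of 77 bp. Of the 5 young sites that overlapped no old one, 3 had an old Foxa2 site within 10 kb (Pck1, Igfbp1 and Fbp1), against 21.5% of all such young sites. A young Pcx site just missed that limit, at 10908 bp. Old Foxa2 sites were dense in the windows, so the 21.5% is not from comparable loci. Foxa2 sites also came close to others of their own list. In the old list 6 of 27 members had another old site within 1 kb, at Pck1, Igfbp1 and G6pc, against 9.45% of the list, and 2 of 9 young Foxa2 members had such a neighbour, against 6.60%. In the Hdac3 lists 4 of 6 young members had one (3.43% of the list) and 0 of 3 old ones (7.51%). These members came as pairs that count each other, so the counts are not independent. The 4 young Hdac3 members all lay in the Pck1 stretch, and the G6pc pair was 991 bp apart, close to the limit. The limit of 1 kb was chosen after the values were seen.

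All 9 Hdac3 members had a q above 0.05, a limit met by 1.80% of the young and 7.95% of the old list. At 0.1, 1 of the 6 young (22.1% of the list) and 3 of the 3 old members (76.0%) were left. No Hdac3 member overlapped an Hdac3 site of the other age, where 2.71% of young and 5.56% of old Hdac3 sites did over the whole lists. None overlapped a Foxa2 site of its own age either, whereas 4.07% of young Hdac3 sites and 5.39% of old ones did over the lists. One young Hdac3 site, of 2 bp at Pck1, overlapped an old Foxa2 site, as 4.46% of the young list did. When edges within 500 bp counted, 2 of the 6 young Hdac3 sites had a young Foxa2 site (33.3%, exact 95% interval 4.33 to 77.7; whole list 6.02%) and 3 had an old one (50%, 11.8 to 88.2; whole list 7.50%). These were the sites of the Pck1 stretch and the Tat site. The 4 Pck1 sites lie within 3.89 kb of each other and are not independent, so these counts rest on 2 loci. The 3 old Hdac3 members had no Foxa2 site of either age that near, where 11.9% of the old list had a young and 7.78% an old one.

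Wider old Foxa2 sites had lower q-values, and enrichment followed q less closely. Old Foxa2 members had a median width of 94.0 bp (whole list 100 bp) and a median enrichment of 14.1 (whole list 22.3), and young ones 39.0 bp (40 bp) and 17.7 (11.9). Across the 27 old members, Spearman's rho was -0.82 between width and q and -0.11 between enrichment and q, and over the whole old list the values were -0.90 and -0.14. In the young Foxa2 list the contrast was smaller, with -0.53 and -0.37 across the 9 members and -0.62 and -0.25 over the whole list. Sites share their libraries, so these are descriptions. All 5 members with an enrichment above 100 (at Tat, Pck1, Pcx and Ppargc1a, 4 of them Hdac3 sites) were under 30 bp wide, as were 88.9% of the 3509 such sites in the 4 lists. The reverse did not hold: the other 7 of the 12 members under 30 bp had an enrichment below 100. Among them were the 1 and 2 bp Hdac3 sites of Pck1 at 5.40. Over the 4 lists, 5681 of the 8801 sites under 30 bp did not exceed 100 either. An enrichment above 100 was found for 12.4% of all listed sites and for 5 of the 45 members. Since the reference of the enrichment is not given, a higher value in 1 list than in another shows no stronger binding.

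**Figure D4:**
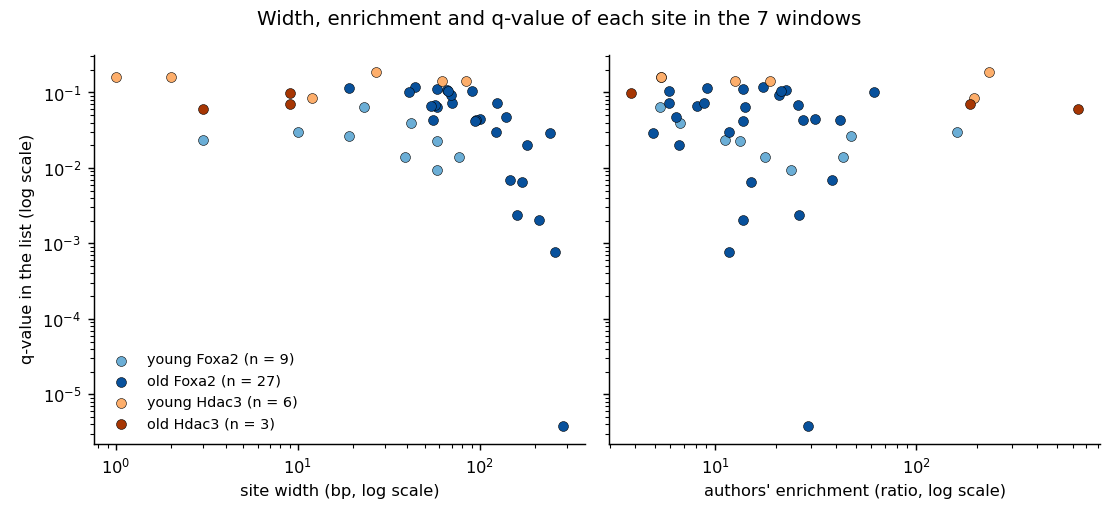
Each point is 1 of the 45 sites, with its q-value on a log vertical axis against its width in bp (left) and the authors' enrichment (right), both on log axes, coloured by list. Old Foxa2 points run down to the right in the left panel, ending with the 286 bp Fbp1 site at a q of 3.77e-06, and all Hdac3 points lie above a q of 0.05.

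The windows may hold other genes than the 7. In the GRCm38.p6 gene order, used for names only, the nearest protein-coding neighbours were 2010003K11Rik and Lrfn4 for Pcx, Ctcfl and Zbp1 for Pck1, Fbp2 and Aopep for Fbp1, Aoc3 and Aarsd1 for G6pc, Marveld3 and Chst4 for Tat, Adcy1 and Igfbp3 for Igfbp1, and Adgra3 and Dhx15 for Ppargc1a. Which of these fall inside a window was not checked. A site in a window may belong to a neighbour, and the lists give no link from a site to a gene.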

How the data were processed

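ChIP-seq libraries of liver (2 per protein and age) were grouped by title. The submitters' processing notes name BWA and the build mm9. Which peak caller and control were used and how libraries were combined were not given in the sources used here. A deposited site has, per the file headers, a position, an enrichment (a ratio by the authors, its reference not given) and a q-value, which reached 0.120 for Foxa2 and 0.200 for Hdac3. Positions are as deposited, with no base shift.

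Widths count both end bases, a distance is the number of bases between 2 sites, and rank is by q, ties by enrichment. Sharing needs an overlap of at least 1 bp. Intervals are exact (Clopper-Pearson). Tiles of each window's length were laid end to end over 19 autosomes between the first and last listed site. They describe the lists and test nothing. Sites named in full were those in more than 1 list, the best-ranked of each window and list, and every Hdac3 site. The young Fbp1 site at 63009804, the second-ranked old Tat site at 112516992 and the old Igfbp1 site at 7092731 were added after their values were seen, for their nearness to sites of other lists. The members, windows and lists were chosen with earlier results of these data known. Alternatives were q limits, lists of equal length, window edges, overlap rules and, chosen after seeing the data, sites of at least 30 bp. Overlap counts equalled those of bedtools 2.31.1 for 12 ordered pairs of lists, and the code was tested on simulated data. Software was matplotlib 3.10.9, scipy 1.17.1, pandas 2.3.3 and numpy 2.4.6 under Python 3.11.15.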

Additional observations from a re-analysis of the deposited data

Results flagged for a closer look

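As deposited, the ratio of old to young sites in the windows was 3.00 for Foxa2 and 0.50 for Hdac3. The ratios of the whole lists were 1.94 and 0.503, so that the Hdac3 value was that of its lists. The pair was noted because the direction differs between proteins under the same comparison of ages. It did not hold at a q of at most 0.1 or with lists of equal length, where the Hdac3 ratio was 3.00 (3 old sites and 1 young one), the same direction as for Foxa2. At 0.1 the whole Hdac3 lists also had more old than young sites (2227 and 1288, ratio 1.73). Lists of equal length are even by construction. The difference between proteins was not tested, since each group had 1 list, and the Hdac3 value rests on 6 and 3 sites.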

How the results depend on the processing

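Old Foxa2 sites outnumbered young ones in the windows under each alternative run. The main count was 18 more old than young sites. The surplus was 11, 6 and 5 at q of at most 0.1, 0.05 and 0.01, where the old list had 20, 14 and 6 sites and the young list 9, 8 and 1, and 4 with lists of equal length, where the old list had 13. For Hdac3, old minus young was -3 as deposited but 2 both at a q of at most 0.1 and with lists of equal length, where 1 young site was left. At 0.1 the whole Hdac3 lists turned as well, with 2227 old and 1288 young sites. At 0.05 and 0.01 the difference in the windows was 0, with 0 sites at either age. The median enrichment of young Hdac3 sites at 0.1 was 193, from that 1 site. Places of Foxa2 shared between ages were 1 in either list with 50% of both sites overlapping. By that rule 18.7% of the whole young and 9.60% of the whole old Foxa2 list were shared. Shared places were 0 at 0.01, where the 1 young site left, at Igfbp1, overlapped no old site as deposited either. As deposited, 1 young Hdac3 site overlapped an old Foxa2 site, and it was 2 bp wide with a q of 0.158. Such a site fails the q limits of 0.1, 0.05 and 0.01 and the 50% rule, so the 0 counts there were fixed in advance. Over the whole young Hdac3 list, 1.89% had an old Foxa2 site by the 50% rule. With edges within 500 bp the count was 3 (whole list 7.50%), and by that rule 2 others had a young Foxa2 site. With sites of at least 30 bp, chosen after seeing the data, 26 old and 5 young Foxa2 sites were left, a surplus of 21. Sites under 30 bp made up 42.0% of the whole young Foxa2 list and 8.06% of the old one. For Hdac3, 2 young and 0 old sites were left, and 0 of these overlapped an old Foxa2 site, since the 2 bp site was removed. Sites under 30 bp made up 56.3% of the whole young Hdac3 list and 58.5% of the old one. Moving window edges by 10 kb changed no count over the 7 windows by over 1.5 times, but narrowing took the Igfbp1 window from 3 old Foxa2 sites to 1. Where a cause is not plain from fewer sites, the cause was not tested. No paired analysis was possible because each group had 1 list for both libraries, and for the same reason no library could be left out. Counts this small, unknown read depth and the lack of replicate lists limit all of these values.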
